A study of Mus musculus with 104 samples.

Results

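Transcription factors that mark excitatory neurons of the developing cerebral cortex were followed across the adult mouse brain. The set held 9 of the 18193 genes measured: Tbr1, Eomes, Neurod1, Neurod2, Neurod6, Fezf2, Bcl11b, Emx1 and Emx2. They were chosen by name, and each was read from 1 probe set, the one with the highest mean over all arrays among probe sets that match a single gene. The labels describe male Balb/c mice aged 7 to 8 weeks, adapted to a daily cycle with 12 hours of light and sampled in that cycle or in constant darkness, without saying which sample came from which. Tissue was punched from both sides of slices 0.5 mm thick, and the 52 regions covered the brain and cord as well as retina, pineal gland and pituitary. RNA was pooled over 6 time points taken every 4 hours, and each region had 2 Affymetrix arrays. Whether the arrays of a region came from different animals is not stated, so p-values here measure only the spread between these arrays, which may be technical.

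These factors act in sequence as cortical excitatory neurons form. Emx1 and Emx2 are homeobox factors of the pallial progenitors from which the cortex and hippocampus arise. Eomes, also called Tbr2, is a T-box factor of the intermediate progenitors, and Tbr1 is its relative in newborn and deep-layer neurons. The NEUROD proteins are basic helix-loop-helix activators of neuronal differentiation that bind E-boxes, and Fezf2 and Bcl11b (also called Ctip2) are zinc-finger factors that specify subcerebral projection neurons of the deep cortical layers. Several also work outside the cortex: Neurod1 in granule neurons, photoreceptors and endocrine cells, Eomes in mitral and tufted cells, and Bcl11b in striatal medium spiny neurons.

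On build GRCm38.p6, Tbr1 (probe set 1416711_at) lies at chr2:61802863-61814114 and Neurod1 (1426413_at) at chr2:79452637-79456636. Neurod6 (1418047_at) lies at chr6:55677818-55681263 and Emx1 (1441777_at) at chr6:85187931-85204463. Eomes (1435172_at) lies at chr9:118478186-118486132, Neurod2 (1418995_at) at chr11:98325415-98329645 and Bcl11b (1435227_at) at chr12:107910403-108004145. Fezf2 (1418790_at) lies at chr14:12338992-12346803 and Emx2 (1456258_at) at chr19:59458690-59465357.

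The promoters of the NEUROD genes are shown because these relatives bind the same type of site, while Neurod1 and Neurod6 had unlike regional profiles (r = 0.24). All 9 genes matched the RefSeq promoter table of build GRCm38.p6. The 250 bases upstream of the start that this table gives, which for these 3 genes is also the outer end of the gene, are printed 5′ to 3′ with every E-box, CANNTG on either strand, in capitals.
Neurod1, chr2:79456637-79456886, minus strand: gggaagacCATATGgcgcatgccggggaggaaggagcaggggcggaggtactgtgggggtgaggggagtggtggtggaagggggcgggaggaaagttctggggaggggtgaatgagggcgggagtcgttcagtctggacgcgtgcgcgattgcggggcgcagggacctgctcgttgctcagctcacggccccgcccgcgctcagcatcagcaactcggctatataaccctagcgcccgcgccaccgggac
Neurod2, chr11:98329646-98329895, minus strand: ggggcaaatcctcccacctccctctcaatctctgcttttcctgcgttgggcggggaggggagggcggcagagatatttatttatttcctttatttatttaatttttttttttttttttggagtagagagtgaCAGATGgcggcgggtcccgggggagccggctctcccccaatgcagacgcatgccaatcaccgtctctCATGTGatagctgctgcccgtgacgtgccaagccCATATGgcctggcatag
Neurod6, chr6:55681264-55681513, minus strand: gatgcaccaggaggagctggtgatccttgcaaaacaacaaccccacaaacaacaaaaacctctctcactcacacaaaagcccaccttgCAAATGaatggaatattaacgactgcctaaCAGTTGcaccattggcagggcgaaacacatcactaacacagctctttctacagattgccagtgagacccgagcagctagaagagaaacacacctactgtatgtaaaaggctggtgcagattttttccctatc
The Neurod1 stretch held 1 E-box, Neurod2 held 3 and Neurod6 held 2. Among 32851 promoter stretches of the same length in the table, 66.2% held at least 1, 31.8% at least 2 and 12.2% at least 3. One of the Neurod2 boxes reads CAGATG, a form that, with its reverse CATCTG, occurred in 14.4% of stretches. Of the others, Tbr1 and Emx1 held 1 E-box each, and Eomes, Fezf2, Bcl11b and Emx2 held 0. For Tbr1, Fezf2 and Bcl11b the start in the table lies inside the gene span given above, so these stretches are within the gene, and the stretch of Eomes overlaps the first bases of its span. A match describes the letters of the window and not a bound site.

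The deposited values are log2 units from robust multi-array averaging (RMA). They ran from 3.88 to 15.15, with a median of 7.39, and array medians lay between 7.33 and 7.46. Over all probe sets, r between the arrays of a region was 0.975 to 0.997, and the median SD between them was 0.08. A level is comparable between regions for 1 probe set, not between genes. Some samples held genes of other tissue, and these are described before the results they touch. The first inferior colliculus array held cerebellar granule cell genes, and the retina arrays held pituitary hormone genes. The mean of 4 choroid plexus genes was 11.64 in the pineal gland, 11.00 in CA2/CA3, 10.53 in the retina and 9.44 in CA1. It was 7.96 in the dentate gyrus and 7.43 in motor cortex. The region labelled lateral hypothalamus had Hcrt at 7.32 and 7.78 and Pmch at 7.66 and 7.73, against 11.17 and 11.05 and 13.93 and 14.03 in the dorsomedial nucleus. In bulk tissue, fewer cells of a type and less RNA per cell cannot be told apart.

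**Figure D1:**
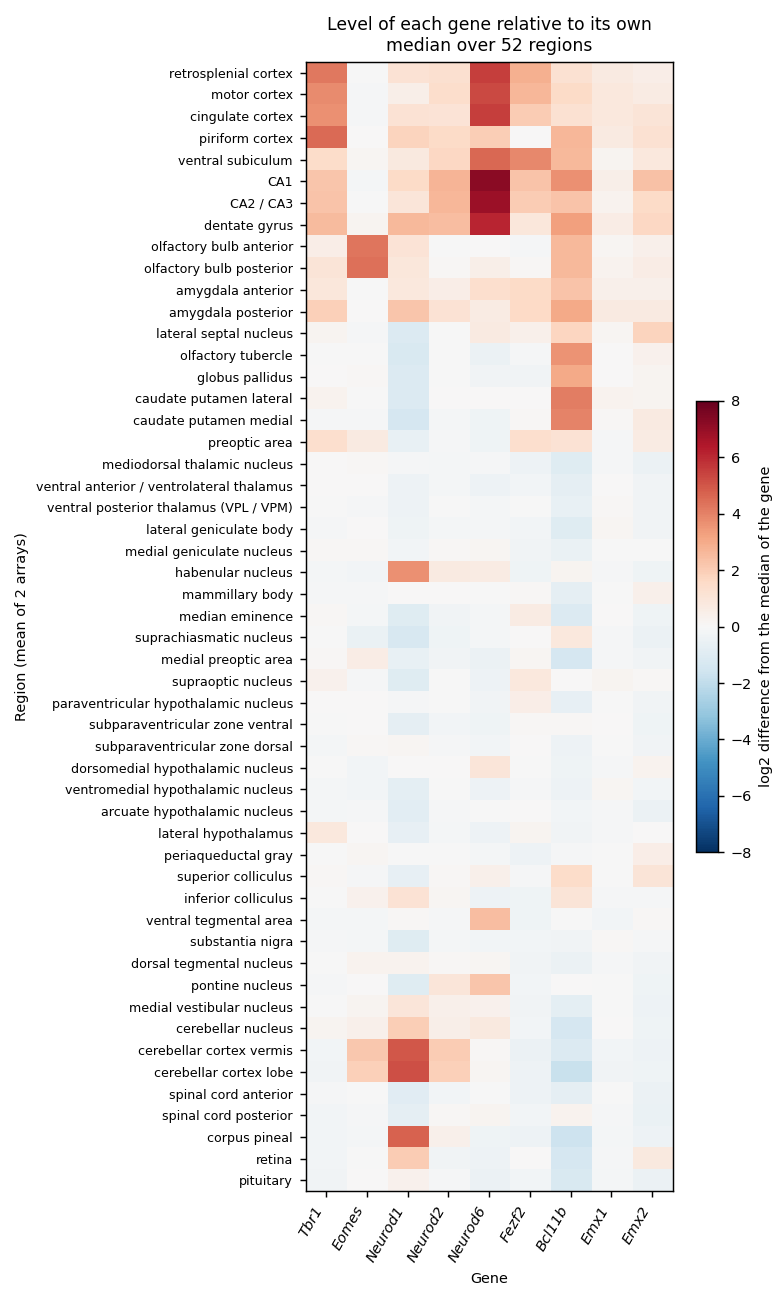
Colour gives the mean of 2 arrays minus the median of that gene over 52 regions, in log2 units, for the 9 genes (columns) in every region (rows, ordered from cortex to pituitary). Neurod6 stood furthest above its median in the hippocampus, Eomes in the olfactory bulb, Neurod1 in the cerebellar cortex and pineal gland, and Bcl11b in the caudate putamen.

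All 9 genes differed among the 52 regions by limma's F test over 18193 genes and spanned at least 2-fold, as did 60.3% of all genes. Adjusted p ran from 1.44e-17 for Emx1 to 2.44e-47 for Bcl11b. The spread between the highest and lowest region was 7.71 for Neurod6 (210-fold), 6.55 for Neurod1 (93.8-fold) and 5.84 for Bcl11b (57.3-fold), against a median of 1.24 over all genes. It was 4.92 for Eomes, 4.79 for Tbr1, 4.27 for Fezf2, 3.05 for Neurod2 and 2.90 for Emx2. Emx1 had the smallest spread of the set, 1.13 (2.18-fold). The number of regions whose mean reached 7.39 was 4 for Tbr1, 4 for Eomes, 7 for Neurod6, 8 for Fezf2 and 1 for Emx2, but 30 for Neurod1, 44 for Bcl11b and 52 for Neurod2 and Emx1.

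The T-box genes Tbr1 and Eomes marked different places. Tbr1 was highest in piriform cortex, at 9.02 and 9.31, and next in retrosplenial cortex, with a mean of 8.84 ± 0.23 (SD, n = 2). Motor cortex had 7.68 and 9.15, a gap between arrays with an SD of 1.04, and cingulate cortex 8.27 and 8.39. These 4 regions stood above the remaining 48. Motor cortex overlapped with each of the others, so its place in the order is not resolved, and the other 3 did not overlap with one another.

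Below them, Tbr1 read 6.97 and 7.44 in the dentate gyrus, 6.64 and 7.16 in CA2/CA3 and 6.60 and 7.17 in CA1, values that overlap. Posterior amygdala followed at 6.55 in each array. The ventral subiculum had 6.40 and 5.80, and the preoptic area 6.43 and 5.60. The posterior olfactory bulb had 5.79 and 5.56, the anterior amygdala 5.65 and 5.43, and the region labelled lateral hypothalamus 5.58 and 5.44. All of these lay below the hippocampal arrays and above those of the caudate putamen, at most 4.95, and of the cerebellar cortex, at most 4.50.

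Eomes was low in every cortical and hippocampal region, with means from 5.99 to 6.35. Its highest values were 10.64 and 10.52 in the posterior and 10.49 and 10.44 in the anterior olfactory bulb. The cerebellar vermis had 8.46 and 8.15 and the cerebellar lobe 8.15 and 8.00. These 4 regions did not overlap with any other. The next were the preoptic area, at 6.67 and 7.08, and the medial preoptic area, at 6.54 and 7.02. In the dentate gyrus, where new neurons arise in adults, Eomes read 6.25 and 6.46.

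Among the NEUROD genes, Neurod6 followed the cortex and hippocampus most closely. CA1 stood above all other regions at 11.99 and 11.97, followed by CA2/CA3 at 11.39 and 11.77 and the dentate gyrus at 10.99 and 10.65. The cingulate (10.24 and 10.29), retrosplenial (10.14 and 10.38) and motor cortex (9.83 and 10.18) overlapped in order. The ventral subiculum, at 9.03 and 9.64, closed this group of 7. Piriform cortex was apart from the others at 6.24 and 7.21, although Tbr1 was highest there.

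Outside the pallium, Neurod6 read 6.95 and 7.48 in the ventral tegmental area and 6.70 and 7.20 in the pontine nucleus. Slc17a7, which encodes a vesicular glutamate transporter, was at 6.86 and 6.81 in the ventral tegmental area and at 9.39 and 10.15 in the pontine nucleus. Single arrays decided the value in the anterior amygdala, at 7.21 and 4.92, and in the lateral septal nucleus, at 4.58 and 6.33. The median over regions was 4.73.

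Neurod2 was highest in the same hippocampal regions, at 11.65 and 11.66 in CA1, 11.49 and 11.77 in CA2/CA3 and 11.40 and 11.45 in the dentate gyrus. The cerebellar vermis came next at 11.08 and 10.92 and the cerebellar lobe at 10.81 and 10.86. Ventral subiculum had 10.66 and 10.54 and piriform cortex 10.45 and 10.58. The motor, retrosplenial and cingulate cortex lay between 9.83 and 10.47. Neurod2 therefore did not share the drop of Neurod6 in piriform cortex or cerebellum. The pontine nucleus read 9.84 and 10.05 and the habenular nucleus 9.86 and 9.51, above the regional median of 8.96.

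Neurod1 had its highest values outside the cerebrum. The cerebellar lobe stood above all other regions at 12.72 and 12.89, followed by the vermis at 12.63 and 12.59 and the pineal gland at 12.42 and 12.26. The habenular nucleus had 11.38 and 11.16. The dentate gyrus, at 10.19 and 10.20, was the highest pallial region, and its range lay inside that of the inferior colliculus and of no other region. The cerebellar nucleus had 9.06 and 10.06. Posterior amygdala (9.67 and 9.97), retina (9.72 and 9.61), piriform cortex (9.53 and 9.29) and CA1 (9.20 and 9.15) followed. The lowest were the medial caudate putamen, at 6.18 and 6.31, and the suprachiasmatic nucleus, at 6.30 and 6.37.

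In the inferior colliculus, Neurod1 read 10.59 in the first array and 7.01 in the second (SD 2.53). Eomes and Neurod2 also had their largest SD between arrays in this region, 0.48 and 0.46. The cerebellar granule cell genes Gabra6, Cbln3, Cbln1 and Zic1 differed in the same direction. Gabra6, whose GABA receptor subunit marks these cells, was at 10.52 and 6.79, Cbln3 at 9.25 and 7.33, Cbln1 at 11.11 and 9.08 and Zic1 at 11.44 and 9.27. In the cerebellar cortex, Gabra6 read 12.77 to 13.10. The cerebellar nucleus, with Neurod1 at 9.06 and 10.06, had Gabra6 at 8.36 and 9.21. The pineal gland and habenular nucleus had Gabra6 between 6.19 and 6.34. The mean of 7 granule cell genes was 8.84 in the inferior colliculus (9.56 and 8.11 by array), 8.94 in the cerebellar nucleus and 11.34 in the cerebellar lobe. These 7 include Zic2, Barhl1 and Grm4, whose single values are not given here. The part of granule cell RNA in the colliculus values was not tested.

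**Figure D2:**
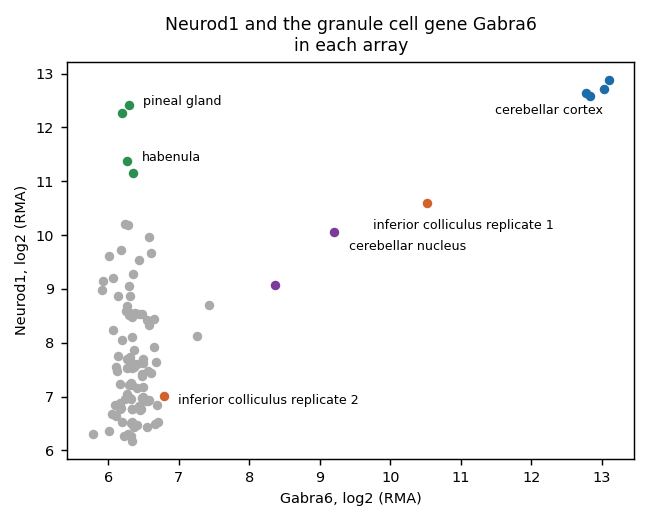
Each point is 1 array of the 52 regions, with the log2 RMA value of Gabra6 on the horizontal axis and of Neurod1 on the vertical axis. Arrays of the cerebellar cortex were high in both, the first inferior colliculus array and both cerebellar nucleus arrays lay between, and the pineal gland and habenula arrays were high in Neurod1 with Gabra6 at most 6.34.

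The zinc-finger genes Fezf2 and Bcl11b differed in their reach. Fezf2 was highest in the ventral subiculum, at 10.22 and 9.36, above all other regions in both arrays. Retrosplenial cortex had 8.87 and 8.71, motor cortex 8.52 and 8.69 and cingulate cortex 8.10 and 7.91. CA1 had 8.58 and 7.88 and CA2/CA3 7.82 and 8.22, overlapping with cingulate cortex, while the dentate gyrus was lower at 6.92 and 6.82. Piriform cortex, the highest region for Tbr1, had Fezf2 at 5.95 and 6.02, close to the regional median of 5.97. Posterior amygdala had 8.12 and 7.07, anterior amygdala 7.41 and 7.58 and the preoptic area 7.44 and 7.22, overlapping in order. The supraoptic nucleus (6.84 and 6.78), overlapping with the dentate gyrus, and the median eminence (6.68 and 6.64) were the next highest.

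Bcl11b was highest in the caudate putamen, at 12.55 and 12.49 laterally and 12.50 and 12.31 medially. CA1, at 12.08 and 12.10, and the olfactory tubercle, at 12.03 and 12.06, did not overlap with it. The dentate gyrus had 11.79 and 11.69, the globus pallidus 11.37 and 11.57 and the posterior amygdala 11.47 and 11.44. Piriform cortex, ventral subiculum and olfactory bulb overlapped between 10.95 and 11.17, and CA2/CA3 lay below CA1 at 10.74 and 10.69. The 3 isocortical regions read 9.45 to 10.14, overlapping with the superior colliculus at 10.02 and 9.79. The mean of the 7 striatal marker genes measured of 9 listed was 12.62 and 12.50 in the lateral and medial caudate putamen, 12.46 in the olfactory tubercle and 11.25 in the globus pallidus.

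**Figure D3:**
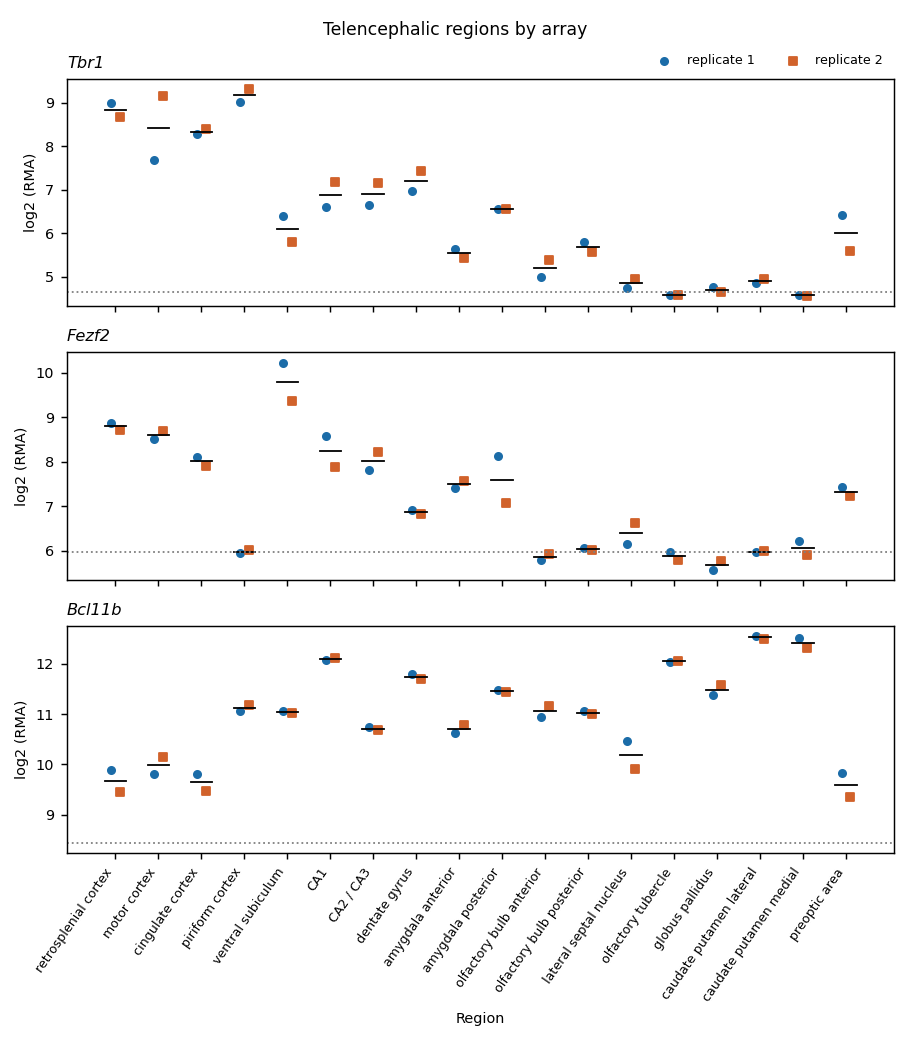
Log2 RMA values of single arrays (circles replicate 1, squares replicate 2), means of 2 arrays (bars) and the median over 52 regions (dotted lines) are shown for Tbr1, Fezf2 and Bcl11b in 18 telencephalic regions. Piriform cortex was highest for Tbr1 and near the median for Fezf2, and the caudate putamen was highest for Bcl11b and near the median for Tbr1.

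The homeobox genes had the weakest contrasts between regions. Emx1 was highest in motor cortex, at 8.52 and 8.79, and cingulate cortex, at 8.66 and 8.59, with posterior amygdala, piriform and retrosplenial cortex between 8.37 and 8.61. The arrays of these 5 regions overlapped in order, since one retrosplenial array, at 8.61, exceeded the lower arrays of motor and cingulate cortex. The lowest values were 7.65 and 7.41 in the cerebellar lobe. Emx2 was highest in CA1, at 7.95 and 7.39, both above every other array. Lateral septal nucleus (7.38 and 6.84), dentate gyrus (7.31 and 6.64) and CA2/CA3 (6.43 and 7.21) overlapped. Superior colliculus, at 6.39 and 6.27, and retina, at 6.07 and 6.11, lay among the cortical regions.

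A pallial set of 8 regions (retrosplenial, motor, cingulate and piriform cortex, ventral subiculum, CA1, CA2/CA3 and dentate gyrus) was set against 6 subpallial ones (lateral septal nucleus, olfactory tubercle, globus pallidus, both parts of caudate putamen and preoptic area). A call needed at least a 2-fold difference and an adjusted p under 0.05 (limma, Benjamini-Hochberg over 18193 genes). Of the 9 genes, 5 were higher in the pallium, where 1.21% of all genes were called higher, and 0 were lower, against 0.731%. Neurod6 differed most, by 5.49 ± 0.14 (SE), or 45.1-fold, adjusted p = 4.29e-41. Tbr1 was higher by 2.79 ± 0.08, Neurod1 by 2.39 ± 0.16, Neurod2 by 1.91 ± 0.06 and Fezf2 by 1.81 ± 0.07, with adjusted p of at most 6.77e-21. Every pallial array exceeded every subpallial array for Neurod1 and Neurod2, and arrays of the sets overlapped for the other 7 genes.

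Emx2 (0.57 ± 0.07), Emx1 (0.51 ± 0.04) and Eomes (-0.09 ± 0.06) were not called. Bcl11b differed by -0.62 ± 0.07, under 2-fold. Its sign depended on the regions that entered. The regions were also divided at the middle of their order by hybridisation controls, RNAs added to each array in fixed amount. The lower part leaves 4 pallial regions without isocortex and the preoptic area, whose control level is uncertain, as the lone subpallial region. The difference was 1.65 there and -1.47 in the upper part. At any fold, 8 of the 9 genes and 41.5% of all genes passed the adjusted p. The median difference was 1.81 over the 9 genes and -0.00 over all genes. Of 33 other transcription factors of the cortical lineage measured (37 listed), 6 were higher and 1 was lower, with a median difference of 0.10. Nr2f1, an orphan nuclear receptor that patterns the cortex, was higher by 2.45 ± 0.06, Nfib by 1.77 ± 0.14, and Foxp2, a forkhead factor of striatal and deep-layer neurons, was lower (-2.80 ± 0.10). Of 16 effector genes of pyramidal and granule neurons, 5 were higher and 0 lower (median 0.81), with Slc17a7 higher by 4.24 ± 0.10, Nrn1 by 3.88 ± 0.09 and Sv2b, a synaptic vesicle protein, by 2.09 ± 0.06.

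Against 31 regions below the telencephalon, 7 of the 9 genes were higher in the pallium, where 2.03% of all genes were called higher, and 0 were lower, against 1.28%. The differences were 5.25 ± 0.10 for Neurod6, 3.10 ± 0.06 for Tbr1, 2.69 ± 0.05 for Bcl11b, 2.16 ± 0.05 for Fezf2, 1.70 ± 0.04 for Neurod2, 1.40 ± 0.05 for Emx2 and 1.11 ± 0.11 for Neurod1. Tbr1 arrays of the pallium all exceeded those below the telencephalon. Emx1 (0.62 ± 0.03) and Eomes (-0.14 ± 0.04) were not called. At any fold, 9 of 9 passed, against 59.4% of all genes. The median difference of the set was 1.70. The Neurod1 value depended on the regions: it was 0.93 without the dentate gyrus, 1.17 without the first inferior colliculus array, 1.58 without cerebellar cortex, cerebellar nucleus and inferior colliculus, and 0.73, under 2-fold, among regions in the lower part by hybridisation controls. With region means as the samples, its adjusted p was 0.166. The other lineage factors had 9 of 33 higher and 1 lower (median 0.22), led by Lhx2, a LIM homeobox factor of cortical progenitors (7.99-fold), Mef2c (2.54 ± 0.05) and Bcl11a, the paralogue of Bcl11b (2.37 ± 0.06). The effector genes had 14 of 16 higher and 0 lower (median 2.01), led by the dendritic protein gene Ddn (4.39 ± 0.06), Slc17a7 (3.50 ± 0.07) and the kinase gene Ptk2b (3.47 ± 0.06).

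**Figure D4:**
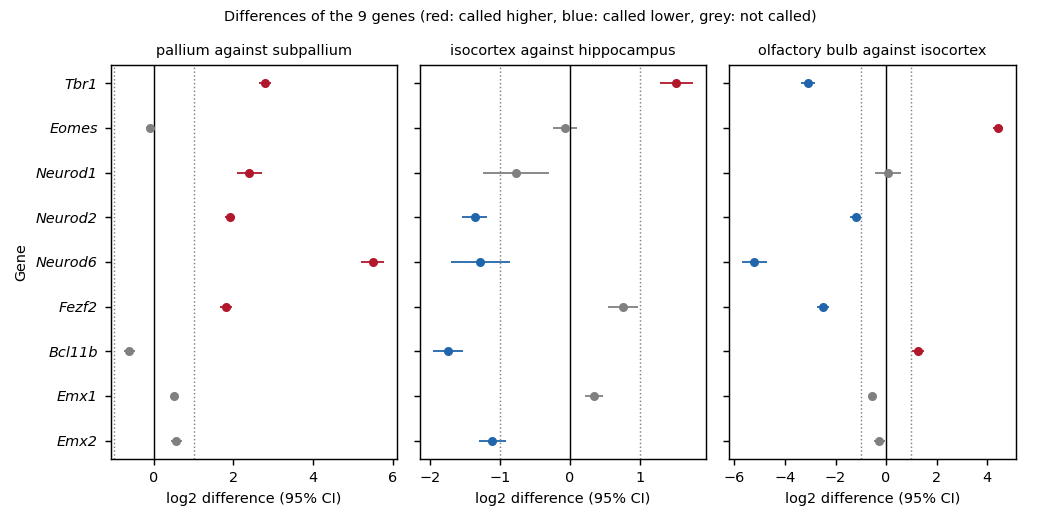
Points are log2 differences of the 9 genes with 95% confidence intervals from limma in 3 comparisons, with dotted lines at 2-fold. Red points were called higher and blue points lower in the first set. Neurod6 differed by 5.49 between pallium and subpallium, and Eomes by 4.43 and Neurod6 by -5.21 between olfactory bulb and isocortex.

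Within the pallium, the isocortex (retrosplenial, motor and cingulate cortex) was set against the hippocampus (CA1, CA2/CA3 and dentate gyrus). Tbr1 was the 1 gene called higher in isocortex, by 1.53 ± 0.12, adjusted p = 9.04e-17, with all isocortical arrays above all hippocampal ones. The 4 genes lower in isocortex were Bcl11b (-1.75 ± 0.11), Neurod2 (-1.37 ± 0.09), Neurod6 (-1.28 ± 0.21) and Emx2 (-1.11 ± 0.10). Over all genes, 1.15% were called higher and 1.03% lower. Arrays did not overlap for Bcl11b, Neurod2 and Neurod6, and did for Emx2. With region means as the samples, the adjusted p was 0.0647 for Bcl11b, 0.0876 for Neurod6 and 0.0892 for Emx2. Emx2 was also below 2-fold without CA1 (-0.86), without retrosplenial cortex (-0.999) and without the second CA2/CA3 array (-0.98). Hybridisation controls averaged 10.79 in isocortex and 10.13 in hippocampus. Against the dentate gyrus alone, the hippocampal region in the upper part of the 52 regions by these controls, Neurod6 differed by -0.65 and Emx2 by -0.93, neither called, while Fezf2 (1.59) was called higher and Neurod1 (-1.64) lower. Of 4 choroid plexus genes, 2 were lower in isocortex (median -1.56), where they averaged 7.43 to 8.37, and their part in these values was not tested.

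Against all 3 hippocampal regions, Fezf2 (0.76 ± 0.11), Emx1 (0.34 ± 0.06), Neurod1 (-0.78 ± 0.24) and Eomes (-0.07 ± 0.08) were under 2-fold. At any fold, 8 of 9 passed, against 32.1% of all genes, and the median difference was -0.78 over the set and 0.01 over all genes. Among the other lineage factors, 4 were higher and 4 lower (median 0.01). Tshz3, a zinc-finger homeobox factor, was higher by 2.63 ± 0.12, Mef2c was higher by 2.10 ± 0.11 and Lmo3, a LIM-domain protein, was lower (-2.05 ± 0.10). Of the effector genes, 0 were higher and 4 lower (median -0.58). They included Ptk2b (-1.61 ± 0.12), the calcium sensor gene Hpca (-1.27 ± 0.11) and Nptx1, a secreted pentraxin of synapses (-1.15 ± 0.08).

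Between the dentate gyrus and the CA fields, 1 gene was higher, against 0.676% of all genes, and 1 was lower, against 1.65%. Neurod1, which granule neurons need to mature, was higher in the dentate gyrus by 1.30 ± 0.35, adjusted p = 0.00326. Without CA2/CA3 it was 1.02 with an adjusted p of 0.0529. Fezf2 was lower (-1.25 ± 0.16, adjusted p = 3.22e-09). Neurod6 (-0.96 ± 0.32) was just under 2-fold, and Neurod2 (-0.22 ± 0.14), Tbr1 (0.31 ± 0.18), Eomes (0.28 ± 0.13), Bcl11b (0.34 ± 0.16), Emx1 (0.21 ± 0.10) and Emx2 (-0.27 ± 0.15) were not called. At any fold, 3 of 9 passed, against 27.8% of all genes, and the median difference was 0.21 over the set and -0.01 over all genes. The dentate gyrus arrays lay above those of the CA fields for Neurod1, Eomes and Emx1 and below them for Fezf2, Neurod6 and Neurod2, and overlapped with them for the other 3. The granule cell genes Prox1 and Dsp were at 9.47 and 9.34 and at 10.40 and 10.43 in the dentate gyrus and at most 6.70 and 6.49 in the CA fields. All 4 choroid plexus genes were lower in the dentate gyrus (median -2.05), with array means of 8.02 and 7.90 there, 8.96 and 9.92 in CA1 and 10.96 and 11.04 in CA2/CA3. Of 5 oligodendrocyte genes measured, 4 were lower (median -1.39), with region means of 10.28 in the dentate gyrus, 11.15 in CA1 and 12.00 in CA2/CA3. Hybridisation controls averaged 10.74 in the dentate gyrus and 9.82 in the CA fields, in different parts of the 52 regions, so no comparison matched by them could be made. The part of these cells and of the control level in the differences was not tested. Prox1 is also among the 33 lineage factors, of which 2 were higher and 2 lower (median 0.01). It was higher by 3.20 ± 0.14, and Pou3f1 (-2.11 ± 0.14) and Foxp1 (-1.28 ± 0.12) were lower. Of the effector genes, 0 were higher and 1 was lower (median -0.17): Camk4, a calcium/calmodulin kinase (-1.02 ± 0.17).

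In the olfactory bulb against isocortex, the set split. Eomes was higher by 4.43 ± 0.09 (21.5-fold, adjusted p = 1.18e-45) and Bcl11b by 1.28 ± 0.12, with 3.28% of all genes called higher. Neurod6 (-5.21 ± 0.24), Tbr1 (-3.09 ± 0.14), Fezf2 (-2.51 ± 0.12) and Neurod2 (-1.21 ± 0.10) were lower, with 2.14% of genes called lower. For these 6 genes, no array of the bulb overlapped with one of isocortex. Neurod1 (0.08 ± 0.26), Emx1 (-0.56 ± 0.07) and Emx2 (-0.26 ± 0.11) were not called. At any fold, 8 of 9 passed, against 50.5% of all genes, and the median difference was -0.56 over the set and -0.04 over all genes. The markers of mitral and tufted cells, which carry the output of the bulb, were high there: Tbx21 at 9.33 to 9.57, Cdhr1 at 12.69 to 12.73 and Doc2g at 11.97 to 12.22. Of 8 GABA neuron genes measured, 7 were higher in the bulb and 1 lower (median 1.52), with region means of 10.15 and 10.25 in the bulb and 8.48 to 8.57 in isocortex. Of 7 genes of dividing and newborn cells, 3 were higher and 0 lower (median 0.85), and of 6 meningeal genes 3 were higher and 0 lower (median 1.05). Hybridisation controls averaged 9.94 in the bulb and 10.79 in isocortex, with no region of both in the same part. The part of these cells and of the control level in the bulb values was not tested.

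Among the other lineage factors, 4 were higher and 5 lower in the bulb (median -0.06). Pax6, a paired-box factor of olfactory and cerebellar neurons, was higher by 2.43 ± 0.13, Tshz3 (-2.27 ± 0.13) and the repressor gene Zbtb18 (-2.00 ± 0.12) were lower. The effector genes had 1 higher and 6 lower (median -0.86): Reln, the secreted reelin protein, was higher by 2.02 ± 0.09, and Itpka (-3.03 ± 0.12) and Hpca (-2.17 ± 0.13) were lower.

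In the striatum (both parts of caudate putamen and olfactory tubercle), Bcl11b was higher than in isocortex by 2.56 ± 0.11 (5.90-fold, adjusted p = 3.04e-30), with 1.57% of all genes called higher. The 5 lower genes, against 2.29% of all genes, were Neurod6 (-5.68 ± 0.21), Tbr1 (-3.84 ± 0.12), Fezf2 (-2.49 ± 0.11), Neurod1 (-2.18 ± 0.24) and Neurod2 (-1.31 ± 0.09). Arrays of the sets did not overlap for any of these 6 genes. Emx1 (-0.66 ± 0.06), Emx2 (-0.33 ± 0.10) and Eomes (0.01 ± 0.08) were under 2-fold. At any fold, 8 of 9 passed, against 34.1% of all genes, and the median difference was -1.31 over the set and 0.01 over all genes. Bcl11b thus differed in sign from the 5 others in the same comparison. Of the other lineage factors, 4 were higher and 9 lower (median -0.28), with Foxp2 higher by 3.38 ± 0.14 and Nr2f1 (-2.91 ± 0.10) and Tshz3 (-2.73 ± 0.12) lower. Of the effector genes, 1 was higher and 4 were lower (median 0.05), among them Nrn1 (-4.56 ± 0.13), Slc17a7 (-3.90 ± 0.15) and Sv2b (-1.63 ± 0.09).

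Cerebellar cortex differed from isocortex in 8 of the 9 genes. Neurod1 was higher by 4.15 ± 0.26 (17.8-fold, adjusted p = 1.62e-21) and Eomes by 2.09 ± 0.09 (adjusted p = 7.93e-29), with 3.4% of all genes called higher. The 6 lower genes, against 3.62% of all genes, were Neurod6 (-5.32 ± 0.24), Tbr1 (-4.13 ± 0.14), Fezf2 (-2.93 ± 0.12), Bcl11b (-2.74 ± 0.12), Emx2 (-1.13 ± 0.11) and Emx1 (-1.04 ± 0.07). Emx1 was below 2-fold with the mean of its probe sets (-0.94) and with quantile normalization (-0.97). The same held without the second array of the cerebellar lobe (-0.98) or of motor cortex (-0.99). Emx2 was below 2-fold without cingulate cortex (-0.98). Neurod2 was higher by 0.71 ± 0.10, under 2-fold. Arrays of the sets did not overlap for any of the 9 genes. Hybridisation controls averaged 10.14 in cerebellar cortex, against 10.79, again with no region of both in the same part, and their part was not tested. At any fold, 9 of 9 passed, against 56.8% of all genes, and the median difference was -1.13 over the set and -0.08 over all genes. Eomes marks unipolar brush cells in the cerebellum. Of 4 genes listed for these cells, 2 were measured: Calb2 read 11.99 to 12.61 and Lmx1a 6.15 to 6.45 in the cerebellar cortex, Lmx1a being below the median of all values. Pax6 was higher by 3.88 ± 0.13, and Lhx2 (-4.54 ± 0.13) and Mef2c (-3.32 ± 0.13) were lower, among 4 higher and 12 lower lineage factors (median -0.56). The effector genes had 3 higher and 7 lower (median -0.69), with Ddn (-5.32 ± 0.14), Nrgn (-3.96 ± 0.13) and Ptk2b (-3.65 ± 0.13) lower.

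The preoptic area was set against 12 hypothalamic regions, which include the medial preoptic area and the supraoptic nucleus. In the pallial comparisons above, the preoptic area was counted as subpallial and the medial preoptic area as below the telencephalon. Bcl11b was higher by 1.52 ± 0.14, Tbr1 by 1.31 ± 0.15 and Fezf2 by 1.14 ± 0.13, with adjusted p of at most 5.02e-10, and their preoptic arrays exceeded every hypothalamic array. Over all genes, 1.26% were called higher and 0.203% lower. At any fold, 5 of 9 passed, against 27.6% of all genes, and the median difference was 0.76 over the set and -0.01 over all genes. Hybridisation controls averaged 9.37 in the preoptic area, a level that is uncertain because its control rows appeared displaced, and 10.42 in the hypothalamus. Tbr1 rested on the first preoptic array: without it the difference was 0.90. Emx2 (0.83 ± 0.13) and Eomes (0.76 ± 0.11) were under 2-fold, and Neurod1 (-0.02 ± 0.30), Neurod2 (0.03 ± 0.12), Neurod6 (-0.15 ± 0.27) and Emx1 (-0.06 ± 0.08) were not called. Slc17a7 was at 6.67 and 7.02 in the preoptic area, against 10.63 and 11.15 in motor cortex. The striatal gene Drd1 read 8.55 and 7.10, and the mean of 6 meningeal genes was 10.55, second to the retina among the 52 regions. The part of these cells, and of the control level, in the preoptic values was not tested. Of the other lineage factors, 0 of 33 were called in either direction by limma, 12 at any fold and 16 at an unadjusted p under 0.05 (median 0.07), and of the effector genes 2 were higher, Nrn1 (1.15 ± 0.17) and Reln (1.04 ± 0.10), and 0 lower (median 0.18).

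The pineal gland and retina were each set against 49 regions of brain and spinal cord. In the pineal gland Neurod1 was higher by 4.41 ± 0.29 (21.3-fold, adjusted p = 4.38e-21), where 7.52% of all genes were called higher. Bcl11b (-2.38 ± 0.13) and Neurod6 (-1.37 ± 0.26) were lower, against 7.78% of genes. At any fold, 8 of 9 passed, against 57.3% of all genes, and the median difference was -0.61 over the set and 0.02 over all genes. In the retina Neurod1 was higher by 1.74 ± 0.29 (adjusted p = 3.54e-07), the 1 gene of 9 called higher where 13% of all genes were, a share near the background. Its retinal level lay below that of the cerebellar cortex, pineal gland, habenular nucleus and dentate gyrus. In the retina Bcl11b (-2.07 ± 0.13) and Neurod6 (-1.43 ± 0.26) were lower, against 8.46%. At any fold, 9 of 9 passed, against 73% of all genes, and the median difference was -0.36 over the set and -0.05 over all genes. Neurod6 there had an adjusted p of 0.0947 with array weights. Emx2 in the retina (0.58 ± 0.12) was under 2-fold. The photoreceptor factor genes Crx and Nrl read 8.49 and 9.60 and 11.36 and 12.07 in the retina, and Crx read 11.60 and 11.72 in the pineal gland. Of 6 photoreceptor genes measured, 6 were higher in the retina (median 4.75). In the pineal gland 3 of the 6 were higher and 0 lower (median 2.37), and its Nrl values are not given here.

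The same retina arrays held Gh at 14.76 and 14.61 and Prl at 14.34 and 13.44, hormones of the pituitary. The 7 pituitary genes measured of 8 listed averaged 12.05 there and 13.94 in the pituitary itself. Neurod1 in the pituitary was 8.23 and 7.70, below the retinal 9.72 and 9.61. Of 4 choroid plexus genes, 3 were also higher in the retina and 0 lower (median 3.38). Of 6 meningeal genes, 4 were higher and 0 lower (median 4.35), with a retinal mean of 11.48. The part of pituitary, choroid plexus and meningeal RNA in the retinal values was not tested. In the pineal gland, all 4 choroid plexus genes (median 3.76) and 5 of 6 meningeal genes (median 2.76) were higher, and their part in the pineal values was not tested. There 4 lineage factors were higher and 9 lower (median -0.10), with Myt1l (-4.51 ± 0.12), Bcl11a (-3.10 ± 0.15) and Sox11 (-2.88 ± 0.16) lower. The pineal effector genes had 0 higher and 10 lower (median -1.72), with Ddn (-3.02 ± 0.15), Camk2a (-2.92 ± 0.18) and Nrgn (-2.54 ± 0.14) lower. In the retina, 4 lineage factors were higher and 5 lower (median -0.08), with Pax6 higher by 3.90 ± 0.14 and Myt1l (-4.10 ± 0.12) and Pou3f3 (-3.08 ± 0.12) lower. The retinal effector genes had 0 higher and 12 lower (median -1.62), with Ddn (-3.27 ± 0.15), Hpca (-2.90 ± 0.14) and Nrgn (-2.70 ± 0.14) lower.

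How closely the members followed one another was described by Pearson's r over the 52 region means, which share tissue composition and neighbouring punches. Tbr1 and Emx1 were closest by this measure (r = 0.89), followed by Neurod2 and Neurod6 (0.80), Tbr1 and Neurod6 (0.77) and Neurod6 and Fezf2 (0.75). Spearman's rho for these pairs was 0.70, 0.72, 0.46 and 0.25, lower than r in each, so that by rho Neurod2 and Neurod6 were closer than Tbr1 and Emx1. Eomes had r with the other 8 between -0.13 and 0.32. Neurod1 correlated at 0.62 with Neurod2, 0.24 with Neurod6 and -0.13 with Bcl11b. Within the NEUROD genes, Neurod1 and Neurod6 had the lowest r.

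Among 13322 other genes whose highest region mean reached the median of all values, the closest to each member were named by Pearson's r. Tbr1 was closest to Slc30a3, the zinc transporter of cortical synaptic vesicles (0.85), Dkkl1 (0.84) and the potassium channel gene Kcnv1 (0.82). Emx1 was closest to Kcnv1 (0.87), Slc30a3 (0.84) and Psrc1 (0.84), so it shared 2 of its 3 closest genes with Tbr1. Eomes was closest to Omp, the olfactory marker protein (0.87), S100a5 (0.87) and Tbx21 (0.85), each highest in the olfactory bulb.

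Neurod1 was closest to Brpf1 (0.83), St6galnac4 (0.77) and Shf (0.76), all highest in the cerebellar lobe. Neurod2 was closest to Zbtb18 (0.88), Prdm8 (0.83) and Nptx1 (0.82), and Neurod6 to Arhgap39 (0.84), Fmnl1 (0.81) and Arhgap15 (0.80). Fezf2 was closest to Mpped1 (0.80), Vxn (0.80) and Baiap2l1 (0.79). Bcl11b was closest to Ddn (0.91), the muscarinic receptor gene Chrm1 (0.90) and Kcnip2, a potassium channel partner (0.90). Emx2 was closest to Strn4 (0.78), Mrtfa (0.78) and Rapgefl1 (0.78), all highest in CA1.

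Other probe sets of the same genes were set against those used. The 3 others of Bcl11b correlated with it over regions at 0.97 to 0.99, the second of Eomes at 0.99 and the second of Neurod1 at 0.99. Each pair had its highest values in the same tissue. Neurod2 had one at 0.98 and one at 0.49, the latter with a range of 0.52 and a highest region mean of 5.54. The second Emx1 probe set, at 0.86, was also highest in motor cortex, at 7.68. Tbr1, Neurod6, Fezf2 and Emx2 had 1 probe set each.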

How the data were processed

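Each region's RNA was read on 2 Affymetrix arrays. The authors normalized them with RMA, per the submitters' processing notes. The values as deposited are log2 levels and were not changed. Of 45101 probe sets, 34945 matched 1 gene symbol, 932 several and 9160 none, and 64 were controls. Each gene was read from its brightest single-symbol probe set, which gave 18193 genes. In the preoptic columns, control probe sets appeared displaced by 3 positions and were read so shifted. Gene values were in place (r = 0.984 with the other regions). At that shift, control values correlated at 0.58 with those of the other arrays, the highest of shifts 0 to 6, against -0.44 unshifted. This match is weak, so the preoptic control level and its place in the lower part are uncertain.

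A mean per region was fitted with limma 3.58.1 in R 4.3.3 (52 residual degrees of freedom, prior 7.87), and set means were compared two-sided, with Benjamini-Hochberg adjustment over all genes. Errors after ± are SE unless named. Arrays give no counts, and 2 per region limit the precision.

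The members, lists and comparisons were chosen with earlier results of these data known. Per list and comparison, up to 3 called genes with the largest differences are named, and per member the 3 genes most like it. The cell type genes named were picked from their lists after their values were seen. In a simulation of each comparison over 18193 genes, 100 of 100 genes planted at 1.5 and 100 of 100 at 2 (log2) were recovered, with 0 false calls. Apart from the planted change, each simulated gene had the same mean in all regions and independent noise. The simulation thus checks the calculation only. It does not measure power or false calls where regions of a set differ, as they do here.

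Deviations of same-numbered arrays correlated above 0.1 in 24.7% of 1326 region pairs (median r -0.00, from -0.50 to 0.52). The numbers thus showed no pairing common to all regions. Deviations shared by some of the regions were not tested. The alternatives were other normalization (array medians, quantiles), dim genes left out, probe sets averaged or read separately, no fold threshold, a variance trend, array weights, a replicate block, the compared arrays alone, regions matched by hybridisation controls, region means, and arrays or regions left out. Leaving out cerebellar regions and inferior colliculus together was added after seeing the data.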

Additional observations from a re-analysis of the deposited data

How the results depend on the processing

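Of 5157 alternative values for 90 gene results, 5062 kept direction and side of the threshold, 23 lost a call, 37 gained one and 35 changed sign. Of 48 called results, 0 changed sign. The cause was not tested where none is given. With the replicate number as a block, 2 members were called higher and 6 lower in cerebellar cortex against isocortex, and no call of any comparison changed. Each region had an array of each number, so the block could not change any difference. It therefore does not show whether the numbers pair arrays.

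With no fold threshold, members called lower became 1 in pallium against subpallium, 1 in pallium against regions below the telencephalon, 2 in dentate gyrus against CA fields, 7 in the pineal gland and 7 in the retina. Of all 18193 genes, 3839, 6194, 3390, 4464 and 6785 were lower in these comparisons, in the same order. Members called higher became 3 in isocortex against hippocampus, 5 in the preoptic area and 2 in the retina. Of all 18193 genes, 2880, 2307 and 6501 were higher there, in the same order. In dentate gyrus against CA fields, 2 were higher without CA1 and 0 without CA2/CA3, and 2 were lower without CA2/CA3. Leaving out single arrays there gave 1 to 2 lower, with 2 without the first array of CA2/CA3 or of dentate gyrus. In isocortex against hippocampus, 2 were higher among regions in the upper part by hybridisation controls and 2 without CA1. With region means 1 was lower there, as were 68 of all 18193 genes. In pallium against subpallium 1 was lower in the upper part, and in the retina 1 with array weights. For regions or arrays left out, the upper part and array weights, matching counts over all genes are not given here. The member counts under those settings therefore stand without a background.

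Bcl11b was 1.65 in pallium against subpallium (lower part) and -0.35 in the dentate gyrus without CA2/CA3. Emx2 in the dentate gyrus was 0.15 without CA1 and ran from -0.60 to 0.061 without single arrays. Eomes was 0.019 in isocortex against hippocampus without the dentate gyrus, 0.017 in pallium against regions below the telencephalon without cerebellar regions and inferior colliculus, and 0.034 (upper part) and 0.036 (without preoptic area) in pallium against subpallium. In the striatum Eomes was -0.046 with the mean of probe sets, -0.010 without lateral caudate putamen, -0.014 without cingulate cortex, and -0.030 to 0.058 without single arrays. Neurod1 in the olfactory bulb was -0.15 without motor cortex, -0.0028 without anterior bulb, and -0.051 to 0.21 without single arrays. Neurod1 in the preoptic area was 0.028, 0.029, 0.018 and 0.042 without dorsomedial nucleus, mammillary body, paraventricular nucleus and dorsal subparaventricular zone, and -0.15 to 0.10 without single arrays. Neurod2 there was -0.089 with the mean of probe sets and -0.11 to 0.17 without single arrays. Neurod2 in the pineal gland was -0.14 (lower part), -0.029 (quantile normalization), -0.13 to 0.15 without single arrays, and -0.0016, -0.0011, -0.003, -1e-04 and -3e-04 without median eminence, medial preoptic area, suprachiasmatic nucleus, ventral subparaventricular zone and anterior spinal cord.

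The mean of probe sets took Neurod2 below 2-fold in isocortex against hippocampus (-0.83), olfactory bulb (-0.86) and striatum (-0.89), where a dim probe set entered. Fezf2 in pallium against subpallium was 0.68 in the lower part. Over all genes, calls in pallium against subpallium numbered 354, against 215 with region means, 974 in the lower part and 7549 with no fold threshold. In isocortex against hippocampus they numbered 397, against 166 and 5838. With no fold threshold, calls rose from 603 to 10809, 424 to 5050, 986 to 9196, 702 to 6200, 1277 to 10332, 267 to 5028, 2784 to 10430 and 3895 to 13286 in pallium against regions below the telencephalon, dentate gyrus, olfactory bulb, striatum, cerebellar cortex, preoptic area, pineal gland and retina. Arrays of thalamus, amygdala, hindbrain nuclei, spinal cord and midbrain other than inferior colliculus were not left out singly; each whole region was left out in turn.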
